A study of Mus musculus with 6 samples.

Results

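The 78 genes described here carry the symbols of mitochondrial ribosomal proteins, and all but Mrps36 encode a subunit of that ribosome. They were taken as every protein-coding mouse gene whose symbol is Mrpl or Mrps followed by a digit. They comprise 49 Mrpl genes, named for the large ribosomal subunit, and 29 Mrps genes, named for the small one, among 55401 rows of the deposited table and 18277 genes that entered the test. Every one of the 78 had at least 10 counts in 3 libraries, and all 78 were tested. The values came from F4/80+ cells, which are cells carrying a surface protein of mouse macrophages, isolated from tumours that had grown for 14 days in mouse liver from injected Hepa 1-6 cells, a hepatoma line. In the Sms-OE group (3 libraries) the injected cells overexpressed Sms, the gene of spermine synthase, from a lentivirus, and the Control group (3 libraries, genotype label WT Control) was the comparison. The labels state that neither group had additional treatment, and they give no strain, sex or age of the mice. They do not say whether the Control cells carried an empty vector, whether the Sms-OE cells were 1 clone or whether the libraries come from separate mice. The p-values reflect the spread among these libraries, which may be technical. The overexpression was made in the tumour cells, and no modification of the macrophages is described. A bulk library cannot separate fewer cells of a type from less RNA per cell.

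Mitochondrial ribosomes make the few proteins encoded by mitochondrial DNA, which are all subunits of the oxidative phosphorylation machinery. Their ribosomal RNAs are transcribed from mitochondrial DNA, whereas their proteins are encoded in the nucleus, made in the cytosol and imported. The small subunit binds and decodes the messenger RNA, and the large subunit joins the amino acids and releases the chain at the inner membrane. Many of the proteins have a counterpart in the bacterial ribosome, and others occur in mitochondria alone. A symbol does not always give the place of a protein. The products of Mrps18a and Mrps30 sit in the large subunit, and the product of Mrps36 is a component of the 2-oxoglutarate dehydrogenase complex. Alternatively activated macrophages are known for their reliance on mitochondrial respiration.

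Promoters of nuclear genes for mitochondrial proteins are known for sites of NRF1, of ETS factors such as GABP and of YY1, and the letters of these sites were looked for in RefSeq promoters (GRCm38.p6, 250 bases before to 50 bases after the start). The 5 promoters printed here, 5′ to 3′ on the gene's strand, belong to Mrps27, the member with the largest fall, to the 3 S18 paralogues, which all fell, and to Mrpl43, whose difference was among the smallest. Capitals mark a match to GCATGCG (NRF1), CCGGAAG (ETS/GABP) or AAGATGG (YY1) or to its reverse complement. The windows are chr13:99344536-99344835 (plus strand) for Mrps27, chr17:46110754-46111053 (plus) for Mrps18a, chr17:35916391-35916690 (minus) for Mrps18b, chr5:100798509-100798808 (plus) for Mrps18c and chr19:45006393-45006692 (minus) for Mrpl43.
Mrps27: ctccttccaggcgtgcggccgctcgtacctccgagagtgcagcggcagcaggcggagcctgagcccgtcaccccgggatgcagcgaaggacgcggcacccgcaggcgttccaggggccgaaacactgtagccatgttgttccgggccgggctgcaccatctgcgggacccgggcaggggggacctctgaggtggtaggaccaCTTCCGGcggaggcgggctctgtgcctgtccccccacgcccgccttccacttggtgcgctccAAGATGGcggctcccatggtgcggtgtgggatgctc
Mrps18a: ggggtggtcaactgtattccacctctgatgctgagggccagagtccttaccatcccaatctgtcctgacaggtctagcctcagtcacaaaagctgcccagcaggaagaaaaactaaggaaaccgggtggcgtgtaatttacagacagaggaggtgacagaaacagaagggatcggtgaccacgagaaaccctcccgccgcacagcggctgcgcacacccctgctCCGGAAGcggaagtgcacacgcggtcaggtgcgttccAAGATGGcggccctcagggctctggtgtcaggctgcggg
Mrps18b: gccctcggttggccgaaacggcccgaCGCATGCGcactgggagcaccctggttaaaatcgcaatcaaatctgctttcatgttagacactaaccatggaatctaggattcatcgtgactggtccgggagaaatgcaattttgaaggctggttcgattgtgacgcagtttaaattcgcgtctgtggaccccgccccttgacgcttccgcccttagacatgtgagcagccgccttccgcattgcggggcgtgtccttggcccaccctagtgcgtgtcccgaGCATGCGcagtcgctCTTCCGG
Mrps18c: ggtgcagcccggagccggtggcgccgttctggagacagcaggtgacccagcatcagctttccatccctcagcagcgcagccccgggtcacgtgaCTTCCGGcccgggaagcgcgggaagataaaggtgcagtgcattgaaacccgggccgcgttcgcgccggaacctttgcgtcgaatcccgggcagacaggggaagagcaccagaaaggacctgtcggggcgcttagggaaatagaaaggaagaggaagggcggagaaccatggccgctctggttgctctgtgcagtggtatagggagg
Mrpl43: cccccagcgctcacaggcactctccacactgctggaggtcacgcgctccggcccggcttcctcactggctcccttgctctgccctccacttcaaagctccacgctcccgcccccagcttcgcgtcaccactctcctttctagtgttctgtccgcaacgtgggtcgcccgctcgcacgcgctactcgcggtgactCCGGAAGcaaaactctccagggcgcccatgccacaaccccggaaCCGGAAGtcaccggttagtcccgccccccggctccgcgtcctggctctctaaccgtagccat
The ETS/GABP letters occurred in all 5 of these windows, next to the YY1 letters in Mrps27 and Mrps18a and to the NRF1 letters in Mrps18b. Mrpl43, which did not pass the test, held the ETS/GABP letters at 2 positions.

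Of the 78 members, 69 had a promoter in the table, 75 windows in all, and 38 of the 69 held at least 1 of the 3 motifs on either strand. The ETS/GABP letters were in 34.7% of the member windows, against 8.86% of all 32851 promoters in the table and 16.0% of the 13905 promoters of tested coding genes. The YY1 letters were in 17.3%, against 6.34% and 6.8%, and the NRF1 letters in 10.7%, against 3.58% and 5.79%. An NRF1 match on one strand can share bases with one on the other, as in Mrps18b, and the last 3 letters of the ETS/GABP motif equal the first 3 of the YY1 motif. The median log2 fold change (Sms-OE minus Control) was -0.58 for the 26 genes with the ETS/GABP letters and -0.59 for the 43 without. It was -0.63 for the 13 genes with the YY1 letters and -0.57 for the 56 without, and -0.45 for the 8 with the NRF1 letters and -0.59 for the 61 without. A match describes letters in a window, and no binding was measured.

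Estimated counts totalled 49833764 to 51123047 in the Sms-OE libraries and 51583985 to 58154006 in the Control libraries, and a member had 157 to 3952 counts in a library. CPM are read counts scaled to library size, by the library total in marker sums and with TMM factors for single genes. The 10 macrophage markers, none of them at 0, summed to 6040 to 7720 CPM in Sms-OE and 6250 to 6750 CPM in Control. Of these 10, 4 fell (C1qa, C1qb, C1qc and Cd68, by 0.35 to 0.66 on the log2 scale) and Itgam rose (log2 0.60). Markers of other cells were present too. The 13 hepatocyte and hepatoma markers summed to 456 to 705 CPM in Sms-OE and 868 to 1040 CPM in Control, with 10 of 13 lower. Afp (58.0 CPM in Sms-OE and 63.6 CPM in Control), Trf (280 and 271 CPM) and Tat did not pass (adjusted p = 0.517, 0.823 and 0.279). Neutrophil markers summed to 2370 to 4130 CPM in Sms-OE and 3530 to 5800 CPM in Control. Of the 9, Mpo (log2 1.68, adjusted p = 0.00176) and Elane (log2 1.51, adjusted p = 0.0112) rose, and the other 7 did not pass. Dendritic cell markers summed to 538 to 624 CPM in Sms-OE and 679 to 931 CPM in Control, and 3 of 7 fell and 1 rose. T and NK cell markers summed to 389 to 578 CPM in Sms-OE and 342 to 483 CPM in Control, and 1 of 9 rose. B cell markers summed to 22.7 to 32.8 CPM in Sms-OE and 23.8 to 28.1 CPM in Control, and 0 of 5 passed. Endothelial markers summed to 126 to 155 CPM in Sms-OE and 137 to 162 CPM in Control, and 3 of 7 fell and 1 rose. Pecam1, which held most of the endothelial sum, did not pass (adjusted p = 0.942). Stellate cell and fibroblast markers summed to 113 to 157 CPM in Sms-OE and 75 to 98.7 CPM in Control, and 2 of 7 rose. Of all tested genes 14.3% fell and 12.5% rose, in the test described below. Haemoglobin genes held 0.485% and 0.512% of counts in Sms-OE replicates 2 and 3, and 0.0225% in Sms-OE replicate 1, against at most 0.0172% in a Control library. No marker of any list was at 0 in every library. The 16 proliferation genes, which dividing cells of any type express, summed to 727 to 1020 CPM in Sms-OE and 1040 to 1430 CPM in Control, and 11 of them fell and 1 rose. The part of these differences in the results below was not tested.

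RNA of the mitochondrial ribosomal proteins was lower in F4/80+ cells of Sms-OE tumours. Of the 78 members, 62 fell, 0 rose and 16 did not pass an adjusted p of 0.05 in edgeR's quasi-likelihood test over all tested genes, where 14.3% of genes fell and 12.5% rose. At an unadjusted p under 0.05, 70 members were lower and 0 higher, where 3673 of the 18277 tested genes were lower and 3325 higher. DESeq2 called 64 lower and 0 higher (69 and 0 unadjusted), and limma-voom 61 and 0 (71 and 0 unadjusted). Of all tested genes DESeq2 called 2840 lower and 2773 higher, and limma-voom 2678 and 2264. The fitted log2 fold change was below 0 for all 78, with a median of -0.58 beside -0.0006 for all tested genes, and it ranged from -1.11 to -0.10. In 69 of the 78 every Sms-OE library lay below every Control library, which was so for 23.3% of all tested genes. The middle 50% of members lay between -0.75 and -0.44 on the log2 scale. Over all tested genes 2293 rose and 2615 fell, or 2521 and 1788 with library size alone as the scaling, under which 45 members fell and 0 rose.

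**Figure D1:**
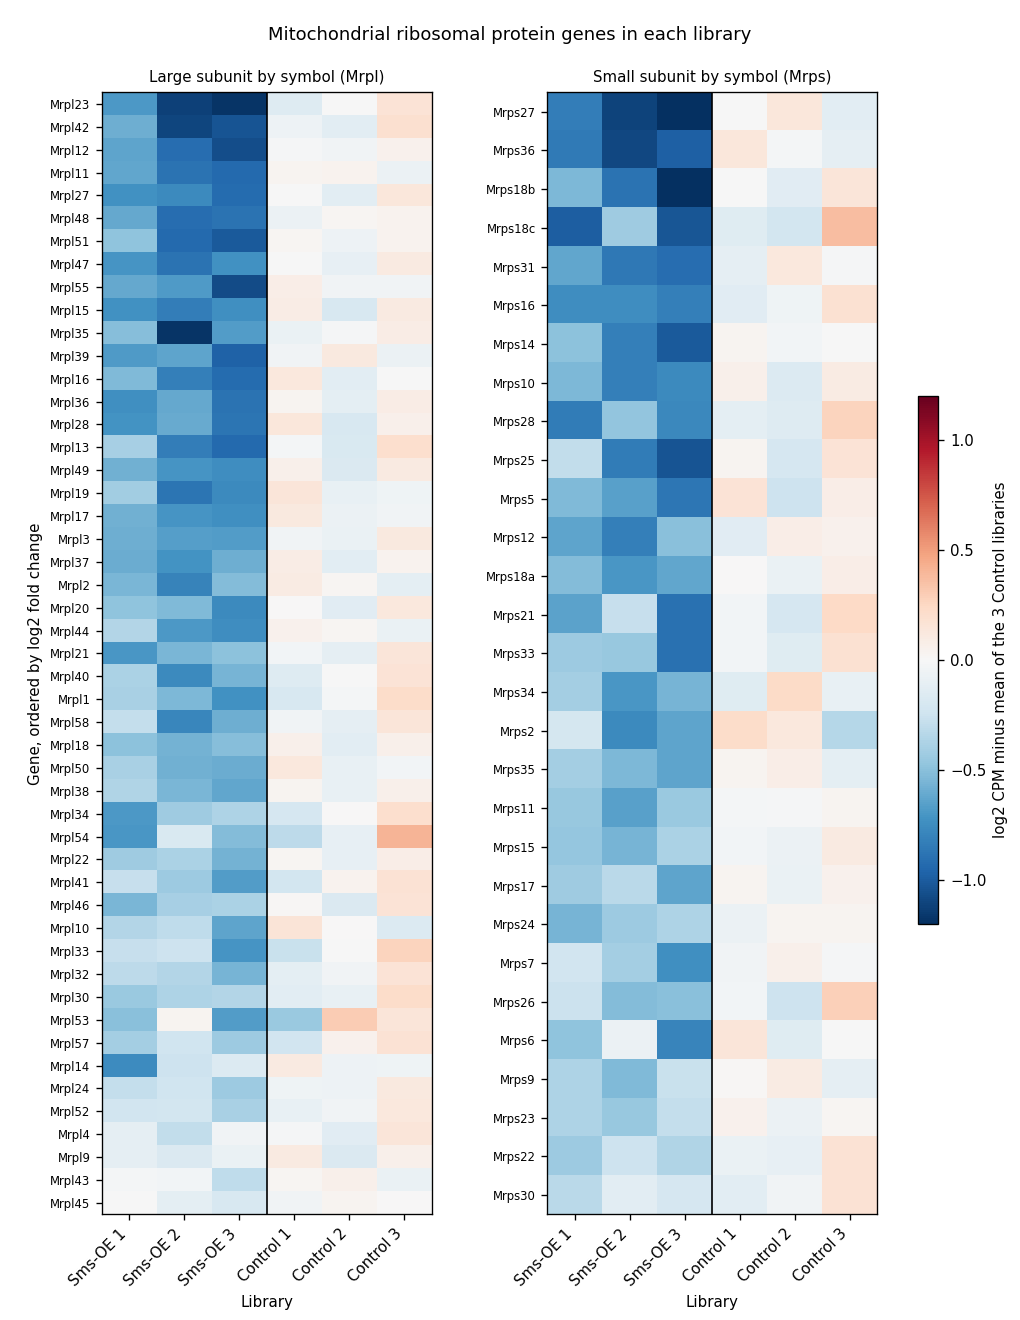
Each row is 1 of the 78 genes, ordered by log2 fold change within Mrpl (left panel) and Mrps (right panel), and each column is 1 library, Sms-OE left of Control. Colour is log2 CPM minus the mean of the 3 Control libraries, blue for lower and red for higher, and values beyond the colour bar take its end colour. The Sms-OE columns are blue in nearly every row, paler at the foot of each panel, where Mrpl43, Mrpl45, Mrps22 and Mrps30 lie.

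The 3 Sms-OE libraries differed among themselves in how low the members were. The median over members of log2 CPM, minus the mean of the Control libraries, was -0.49, -0.59 and -0.67 in Sms-OE replicates 1, 2 and 3, and -0.011, -0.073 and 0.086 in Control replicates 1, 2 and 3. Taken singly, 73, 73 and 76 of the 78 members in Sms-OE replicates 1, 2 and 3 lay below every Control library. Summed over members, the genes held 0.136%, 0.119% and 0.118% of all counts in the Sms-OE libraries, against 0.181%, 0.166% and 0.176% in the Control libraries. The means were 0.124% ± 0.0101 in Sms-OE and 0.174% ± 0.00783 in Control (SD, n = 3 each), a ratio of 0.712, and the groups did not overlap. The ratio was 0.689 when counts of mitochondrially encoded and haemoglobin genes were left out of the total.

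Sms-OE replicates 2 and 3 were the haemoglobin-rich libraries, and values were also computed without them, which leaves Sms-OE replicate 1 alone, assumed to vary like the Control libraries. The members' log2 fold change was then below 0 in all 78, with a median of -0.50, and 10 of 78 passed the test, where 3.41% of all tested genes were called lower. Those 10 were Mrpl12, Mrpl36, Mrps36, Mrpl14, Mrps16, Mrpl15, Mrps27, Mrpl39, Mrpl48 and Mrpl23, with log2 fold changes of -0.86 to -0.62. Mrpl14 was the 1 of them that did not pass with all 6 libraries (adjusted p = 0.115). Leaving out each library in turn gave 41 to 56 members lower and 0 higher, fewest without Sms-OE replicate 3, and 36 members were lower in every one of these 6 fits.

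Genes of both subunits fell, with close medians. By symbol, 38 of 49 Mrpl genes and 24 of 29 Mrps genes fell, with medians of -0.58 and -0.59, and every Sms-OE library lay below every Control library for 42 Mrpl and 27 Mrps genes. Placed by where the protein sits in the ribosome, 39 of 51 large subunit and 22 of 26 small subunit members fell, with a median of -0.58 in each. The summed counts of Mrpl genes were 2.07, 2.04 and 2.1 times those of Mrps genes in the Sms-OE libraries, against 1.99, 2.01 and 2.02 times in the Control libraries. The means were 2.07 ± 0.0287 in Sms-OE and 2.01 ± 0.0178 in Control (SD, n = 3 each), a ratio of 1.03, and the libraries of the groups did not overlap. Without Sms-OE replicate 3 the number of small subunit genes lower was 15 of 29, and that of large subunit genes was 26 to 33 of 49 over the 6 libraries left out.

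**Figure D2:**
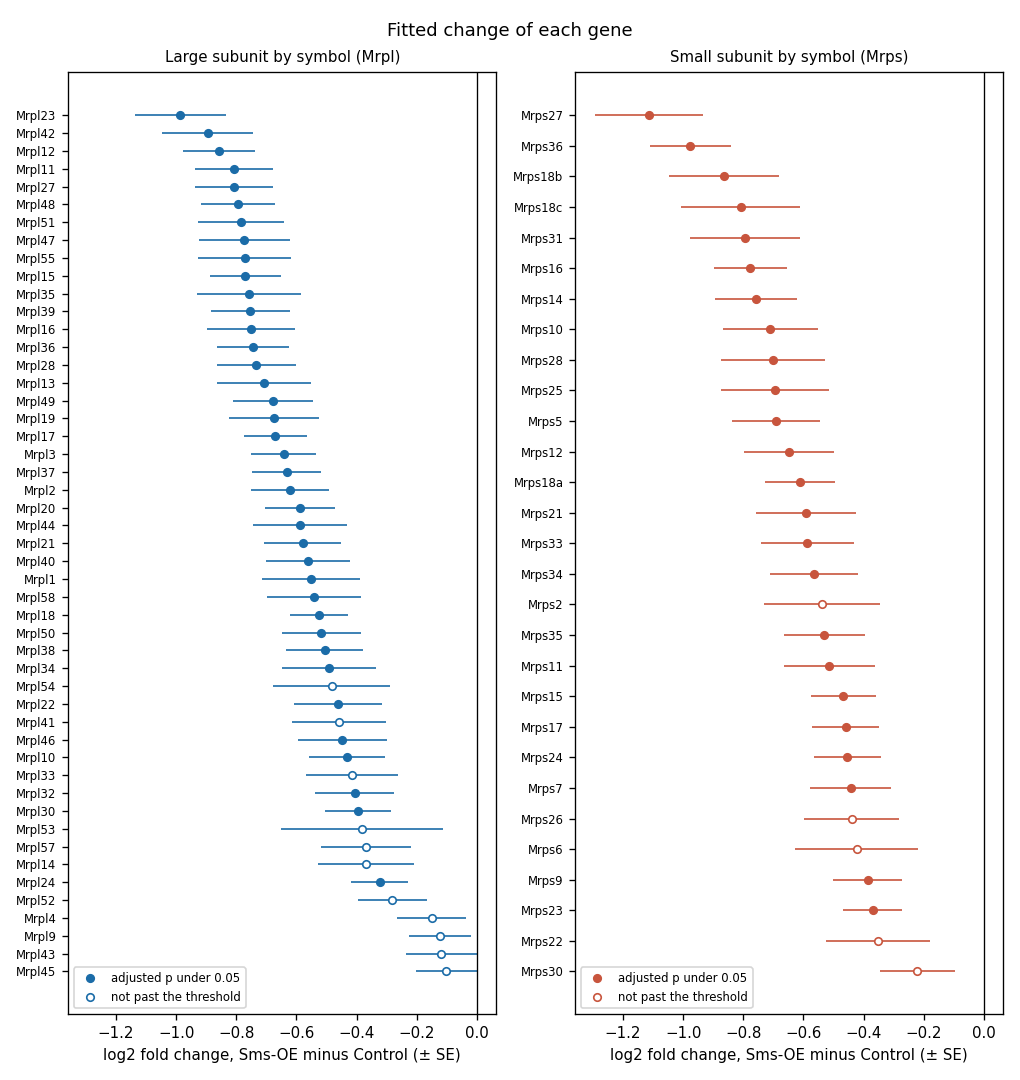
Log2 fold change, Sms-OE minus Control, of each Mrpl and Mrps gene from edgeR, with bars of 1 standard error, filled where the gene passed an adjusted p of 0.05 and open where it did not. All 78 points lie below 0, from -1.11 for Mrps27 to -0.10 for Mrpl45, and the 2 subunits cover much the same range.

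Among small subunit proteins, Mrps27, which belongs to the mitochondria-specific part and to the pentatricopeptide repeat family of RNA-binding proteins, fell the most. Mrps27 (ENSMUSG00000041632, GRCm38 chromosome 13, 99344786 to 99415562) had 7.95, 6.52 and 5.16 CPM in Sms-OE, against 14.1, 15.5 and 12.9 CPM in Control. All 3 Sms-OE values lay well under the lowest Control value, and the fall was 2.17-fold (log2 -1.11 ± 0.18 SE, adjusted p = 0.00207). Mrps16, the counterpart of bacterial S16, had 15.2, 15.2 and 14.4 CPM in Sms-OE, against 23.2, 24.6 and 28.9 CPM in Control. The groups were far apart, and the Sms-OE libraries nearly coincided (log2 -0.78 ± 0.12, adjusted p = 0.00172). Mrps14, the counterpart of bacterial S14, had 21.4, 17.1 and 15.0 CPM in Sms-OE, against 30.9, 29.5 and 30.0 CPM in Control. Its spread was wider within Sms-OE than within Control (log2 -0.76 ± 0.136, adjusted p = 0.00342). Mrps5, the counterpart of bacterial S5, which lines the path of the messenger RNA, fell by 0.69 ± 0.146 on the log2 scale (adjusted p = 0.00728). Each of these 4 stayed lower whichever library was left out.

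The S18 protein has 3 mitochondrial forms in mammals, encoded by separate genes, and all 3 genes fell. Mrps18a, whose product sits in the large subunit, had 15.2, 13.4 and 14.2 CPM in Sms-OE, against 21.9, 20.6 and 23.0 CPM in Control (log2 -0.61 ± 0.115, adjusted p = 0.00424). Both groups were tight and well separated. Mrps18b, found in the small subunit, had 11.3, 8.89 and 6.88 CPM in Sms-OE, against 16.3, 14.9 and 18.1 CPM in Control. It fell 1.82-fold (log2 -0.86 ± 0.183, adjusted p = 0.00743), with the lowest value in Sms-OE replicate 3. Mrps18c, the form that takes the place of bacterial S18, had 14.5, 21.3 and 14.1 CPM in Sms-OE, against 25.9, 24.6 and 37.1 CPM in Control. The groups came within a few CPM of each other (log2 -0.81 ± 0.198, adjusted p = 0.0141), and it did not pass when Sms-OE replicate 3 (adjusted p = 0.0594) or Control replicate 3 (adjusted p = 0.0521) was left out. With offsets for gene length and GC content, described below, Mrps18a and Mrps18b passed (adjusted p = 0.0126 and 0.0427) and Mrps18c did not (adjusted p = 0.0824). Mrps18a did not pass when the offsets used the median length of its basic transcripts (log2 -0.31, adjusted p = 0.0862).

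Mrps36, which shares the naming but serves the 2-oxoglutarate dehydrogenase complex of the citric acid cycle, was lower as well. It had 9.43, 7.97 and 8.62 CPM in Sms-OE, against 18.7, 16.7 and 15.8 CPM in Control. The fall was 1.97-fold (log2 -0.98 ± 0.135, adjusted p = 0.00106), and every Sms-OE value was far under the Control values.

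Among large subunit proteins, the genes with the smallest p-values included parts of the stalk that recruits translation factors. Mrpl12, the counterpart of bacterial L7/L12, is the flexible stalk protein and is also known to bind the mitochondrial RNA polymerase. Mrpl12 (ENSMUSG00000039640, GRCm38 chromosome 11, 120484613 to 120489065) had 27.5, 22.5 and 20.4 CPM in Sms-OE, against 42.1, 41.4 and 44.1 CPM in Control, a fall of 1.81-fold (log2 -0.86 ± 0.121, adjusted p = 0.00117). The Control libraries were close together and the Sms-OE libraries all well below. Mrpl11, at the base of the stalk, had 12.6, 10.5 and 10.2 CPM in Sms-OE, against 19.9, 20.0 and 18.5 CPM in Control (log2 -0.81 ± 0.13, adjusted p = 0.00203). Over the 5 genes listed for the stalk, 3 fell and 0 rose, with a median of -0.48, and Mrpl53 (log2 -0.38 ± 0.268, adjusted p = 0.33) and Mrpl54 (log2 -0.48 ± 0.195, adjusted p = 0.095) did not pass.

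At the polypeptide exit tunnel and the membrane side, 7 of 8 members fell and 0 rose, with a median of -0.63. Mrpl23, a protein at the rim of the tunnel, had 18.1, 13.4 and 12.9 CPM in Sms-OE, against 26.2, 29.1 and 32.7 CPM in Control. It fell 1.98-fold (log2 -0.99 ± 0.152, adjusted p = 0.0017), with no overlap between groups. Mrpl17, which also borders the exit, had 22.0, 20.1 and 19.7 CPM in Sms-OE, against 35.5, 31.2 and 31.9 CPM in Control (log2 -0.67 ± 0.105, adjusted p = 0.00185). Mrpl45, which ties the ribosome to the inner membrane, was the exception of the 8. It had 27.1, 25.1 and 23.7 CPM in Sms-OE, against 26.4, 27.8 and 27.3 CPM in Control, and the groups overlapped (log2 -0.10 ± 0.101, adjusted p = 0.504).

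In the central protuberance, the part of the large subunit that faces the small one, 6 of 7 members fell and 0 rose, with a median of -0.53. Mrpl48 had 15.9, 12.9 and 13.2 CPM in Sms-OE, against 23.2, 24.7 and 25.1 CPM in Control (log2 -0.80 ± 0.123, adjusted p = 0.00171). Its span overlaps Rab6a, so its reads may be shared. Mrpl52 (log2 -0.28 ± 0.114, adjusted p = 0.0967) did not pass. Of the rest of the large subunit, Mrpl15, the counterpart of bacterial L15, had 16.8, 15.6 and 16.7 CPM in Sms-OE, against 29.6, 24.3 and 29.9 CPM in Control (log2 -0.77 ± 0.119, adjusted p = 0.00171). Over the 6 libraries left out in turn, 2 to 3 of the 5 stalk genes, 4 to 6 of the 8 exit tunnel genes and 2 to 5 of the 7 central protuberance genes were lower.

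**Figure D3:**
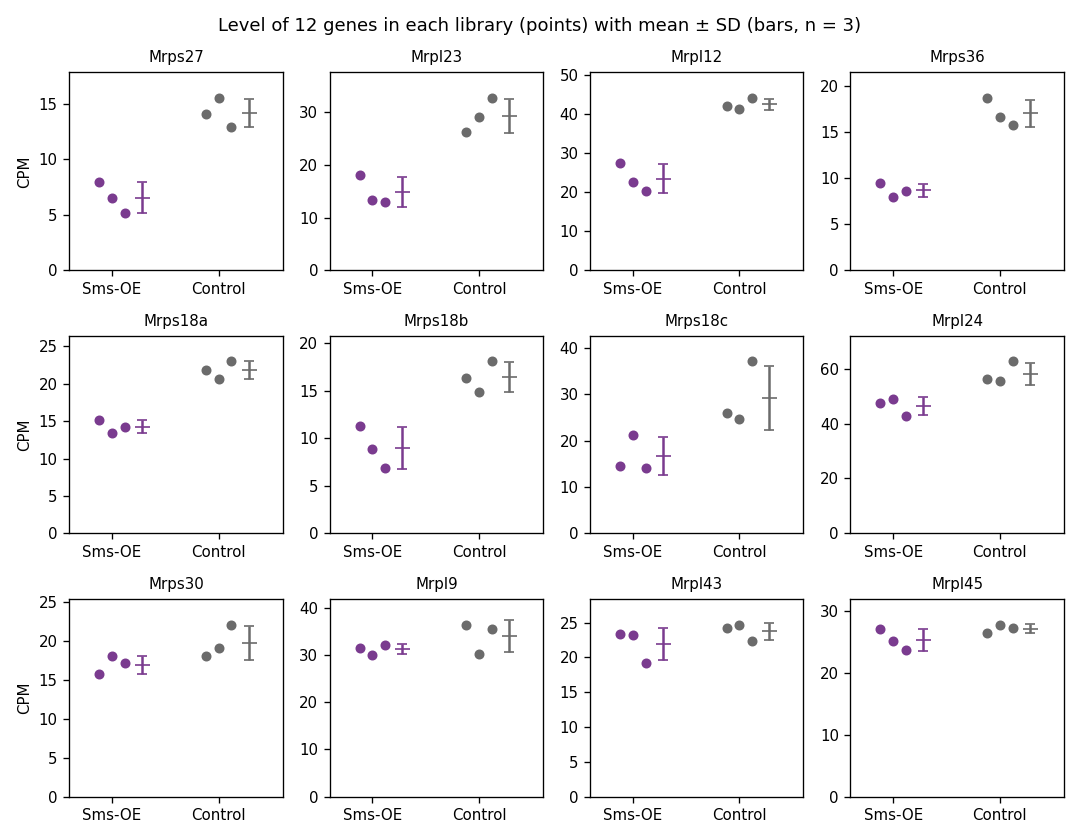
CPM of 12 genes in the 3 Sms-OE libraries (left in each panel) and the 3 Control libraries (right), with the mean and 1 SD as a bar beside the points. The groups are apart in the panels from Mrps27 to Mrpl24, and they touch or overlap in Mrps30, Mrpl9, Mrpl43 and Mrpl45.

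Proteins with a bacterial counterpart and those particular to mitochondria both included many lower genes. Of 46 members with a counterpart 40 fell, with a median of -0.61, and of 31 mitochondria-specific members 21 fell, with a median of -0.54, and 0 rose in either class. Without Sms-OE replicate 3 these numbers were 28 and 12. In the large subunit 26 of 30 and 13 of 21 fell, with medians of -0.63 and -0.52, and in the small subunit 14 of 16 and 8 of 10, with medians of -0.57 and -0.58, for counterparts and mitochondria-specific members in that order. Without Sms-OE replicate 3 the small subunit numbers were 9 and 4 and the large subunit numbers 19 and 8. Small subunit counterparts were also 9 without Control replicate 2, and small mitochondria-specific members 5 without Control replicate 3. With the length and GC offsets the medians of the 2 classes were -0.37 and -0.38.

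The 16 members that did not pass were 11 Mrpl and 5 Mrps genes, and 7 of the 16 had an adjusted p between 0.05 and 0.1. Just inside the threshold stood Mrpl46 (adjusted p = 0.0488) and just outside it Mrpl41 (adjusted p = 0.0527). Mrpl9, the counterpart of bacterial L9, had 31.6, 30.1 and 32.1 CPM in Sms-OE, against 36.5, 30.2 and 35.5 CPM in Control (log2 -0.12 ± 0.104, adjusted p = 0.428). Control replicate 2 fell among the Sms-OE values. Mrpl43, a mitochondria-specific protein, had 23.3, 23.2 and 19.2 CPM in Sms-OE, against 24.2, 24.7 and 22.4 CPM in Control (log2 -0.12 ± 0.117, adjusted p = 0.501). The lowest Control value lay below 2 of the 3 Sms-OE values. Mrps30, whose product lies in the large subunit, had 15.7, 18 and 17.1 CPM in Sms-OE, against 18, 19.1 and 22.1 CPM in Control (log2 -0.22 ± 0.124, adjusted p = 0.223). Mrps22 (log2 -0.35, adjusted p = 0.166) and Mrps6, the counterpart of bacterial S6 (log2 -0.42 ± 0.204, adjusted p = 0.158), did not pass either. Sms-OE replicate 2 was high for Mrps6 at 8.47 CPM, beside 6.35 and 5.12 CPM in the other Sms-OE libraries and 8.02 to 9.83 CPM in Control, and without that library the gene passed (log2 -0.64, adjusted p = 0.0412). The spans of Mrpl43, Mrpl9, Mrps6 and Mrps30 overlap those of Twnk, Oaz3, Slc5a3 and B430218F22Rik, so reads of these neighbours may be counted with them. Among all 78 members, 26 overlap another protein-coding gene, such as Mrps11 and Mrpl46, which overlap each other. Members that fell are among them, such as Mrpl47 (Actl6a and Ndufb5), Mrps18a (Rsph9) and Mrpl24 (Rrnad1).

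Levels among members were compared as CPM per kilobase of the longest transcript. The highest were Mrps21, with 51.0 ± 11.1 in Sms-OE and 76.8 ± 12.1 in Control, Mrpl24, with 34.7 ± 2.45 and 43.4 ± 3.0, and Mrpl20, with 29.5 ± 3.05 and 44.4 ± 4.06 CPM per kilobase (mean ± SD, n = 3 each, Sms-OE given before Control). Mrpl24 and Mrpl20 did not differ beyond their spread in Control. Mrpl54 and Mrps18c came next. The lowest were Mrps22, with 1.65 ± 0.107 in Sms-OE and 2.1 ± 0.232 in Control, Mrps31, with 1.59 ± 0.173 and 2.76 ± 0.226, and Mrps10, with 1.65 ± 0.17 and 2.7 ± 0.269 CPM per kilobase, and these 3 lay within each other's spread in Sms-OE. The order depends on the transcript taken, since with the median length of a gene's basic transcripts the highest were Mrpl33, Mrps21 and Mrpl20. Of the most abundant members per length, Mrps21, the counterpart of bacterial S21, fell (log2 -0.59 ± 0.166, adjusted p = 0.0251), and Mrpl20, the counterpart of L20, fell (log2 -0.59 ± 0.117, adjusted p = 0.0054). Mrpl24, the counterpart of L24, had 47.4, 49.1 and 42.8 CPM in Sms-OE, against 56.1, 55.4 and 62.7 CPM in Control, a fall of 1.25-fold (log2 -0.32 ± 0.0939, adjusted p = 0.0291). The Mrps21 call was lost without Sms-OE replicate 1 or 3 or Control replicate 1 or 3 (adjusted p = 0.071, 0.0853, 0.0521 and 0.0902). The Mrpl24 call was lost without Sms-OE replicate 1 or 3 or any 1 Control library (adjusted p = 0.0517, 0.0938, 0.0549, 0.0605 and 0.0892). Among the lowest, Mrps31 (log2 -0.79 ± 0.182, adjusted p = 0.0103) and Mrpl47, the counterpart of bacterial L29 at the exit tunnel (log2 -0.77 ± 0.151, adjusted p = 0.00509), fell. Mrpl1, the L1 stalk protein, fell as well (log2 -0.55 ± 0.162, adjusted p = 0.0302), a call lost without Sms-OE replicate 2 or 3 or Control replicate 2 or 3 (adjusted p = 0.058, 0.0973, 0.0757 and 0.105).

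Gene length moved with the fold change over all tested genes, so it was set beside the members. Across 4 equal classes of genes by the length of the longest transcript, from short to long, the median log2 fold change of all tested genes was -0.14, -0.11, -0.0067 and 0.19. The members, of which 34, 19, 17 and 8 belonged to these classes, had medians of -0.54, -0.54, -0.75 and -0.68. The numbers called lower were 27, 14, 13 and 8, where 17.7%, 19.2%, 13.1% and 7.26% of all genes of the class were called lower. Over members, Spearman's rho of log2 fold change with length was -0.155 (n = 78 genes), and over all genes with a known length it was 0.174 (n = 18253 genes). These are descriptions across genes of the same 6 libraries.

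**Figure D4:**
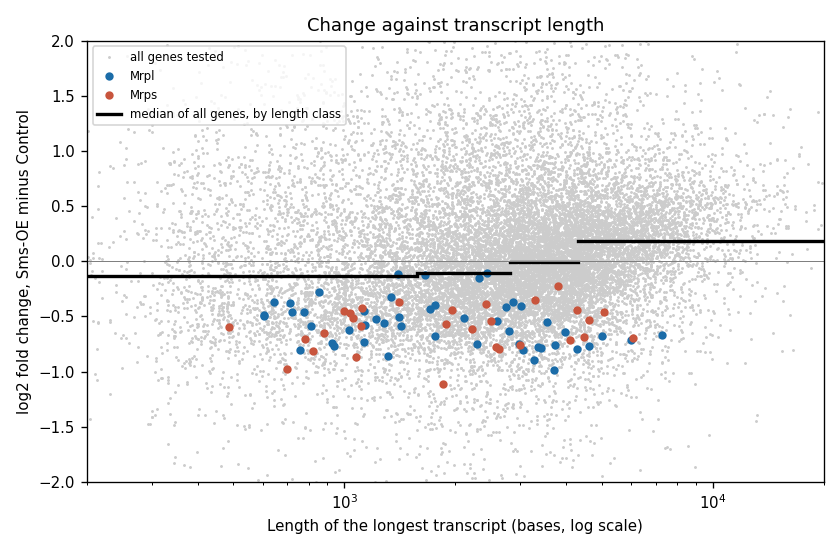
Log2 fold change, Sms-OE minus Control, against the length of the longest transcript on a log axis, for all tested genes (grey), Mrpl (blue) and Mrps (orange) genes, with the median of all genes per length class as black lines. The vertical axis is drawn from -2 to 2 and leaves out genes beyond it. All genes go up to 0.19 in the longest class, while the members of that class have a median of -0.68.

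When each library was given offsets for gene length and GC content, an alternative chosen after seeing the data, fewer members passed. Then 33 of 78 fell and 0 rose, where 9.61% of all tested genes fell, and the median was -0.38, beside 0.06 for all tested genes. The fitted value was below 0 in 74 of 78. All 33 were among the 62 lower without offsets, 20 of them Mrpl and 13 Mrps genes. Mrps27 (log2 -0.89, adjusted p = 0.00663), Mrpl23 (log2 -1.0, adjusted p = 0.00251), Mrpl12 (log2 -0.64, adjusted p = 0.00479), Mrpl17 (log2 -0.87, adjusted p = 0.000556) and Mrps36 (log2 -0.56, adjusted p = 0.0393) were lower with offsets too. Mrpl20 (log2 -0.19, adjusted p = 0.181), Mrps21 (log2 -0.19, adjusted p = 0.272) and Mrpl24 (log2 -0.0018, adjusted p = 0.989) did not pass with offsets. Of the 36 members lower in all 6 fits that left out 1 library, 30 were also lower with these offsets.

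Genes of other large complexes were lower in the same comparison. Of 84 cytosolic ribosomal protein genes 73 fell and 0 rose, with a median of -0.57. Of 37 genes taken by symbol alone as subunits of respiratory complex I 31 fell and 0 rose, with a median of -0.58. Their symbols are Nduf, then a, b, c, s or v, then a digit. Of all tested genes 14.3% fell and 12.5% rose. Over the 6 libraries left out in turn, 50 to 72 of the 84 fell and 0 to 1 rose. Of the 37, 25 to 35 fell and 0 rose. With the offsets the medians were -0.27 and -0.32, beside -0.38 for the mitochondrial ribosomal proteins. The members' summed counts per 100 counts of cytosolic ribosomal proteins were 4.55 ± 0.252 in Sms-OE and 4.63 ± 0.343 in Control, and their ratio to complex I counts was 1.11 ± 0.0574 in Sms-OE and 1.07 ± 0.025 in Control (SD, n = 3 each). Neither ratio differed beyond the spread of the libraries.

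**Figure D5:**
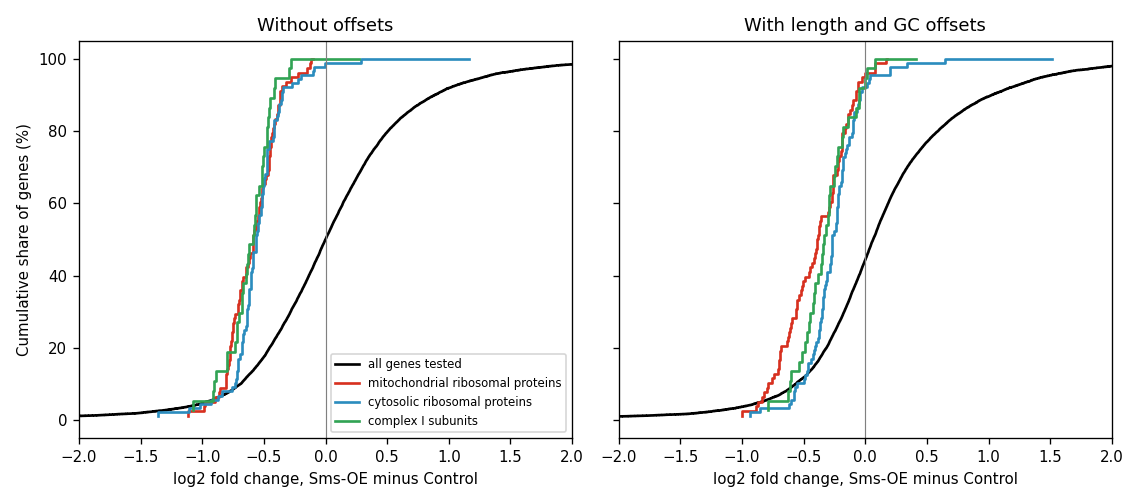
Cumulative share of genes against log2 fold change, Sms-OE minus Control, without offsets (left) and with offsets for length and GC content (right), drawn from -2 to 2. The curves of mitochondrial ribosomal proteins, cytosolic ribosomal proteins and complex I subunits lie together left of all tested genes on the left, with medians of -0.58, -0.57 and -0.58, and nearer to 0 on the right, with medians of -0.38, -0.27 and -0.32.

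Mitochondrial ribosomal proteins that carry other symbols followed the members, and all 5 fell. Dap3, a GTP-binding protein of the small subunit, had 32.5, 31.5 and 30.9 CPM in Sms-OE, against 43.9, 46.5 and 42.1 CPM in Control (log2 -0.48 ± 0.0898, adjusted p = 0.00405). The groups were tight and apart, and the span of Dap3 overlaps that of Ash1l. Chchd1 (log2 -0.70 ± 0.139, adjusted p = 0.00555), Aurkaip1 (log2 -0.34 ± 0.0847, adjusted p = 0.0146) and Ptcd3 (log2 -0.46 ± 0.117, adjusted p = 0.0164) of the small subunit and Gadd45gip1 of the large subunit (log2 -0.54 ± 0.127, adjusted p = 0.0114) also fell. Ptcd3 did not pass when Control replicate 1 (adjusted p = 0.0571) or Control replicate 2 (adjusted p = 0.0533) was left out. With offsets Dap3 (adjusted p = 0.00242) and Gadd45gip1 (adjusted p = 0.0289) passed, and the other 3 did not (adjusted p = 0.0833 for Chchd1, 0.363 for Aurkaip1 and 0.13 for Ptcd3). With the median basic transcript length in the offsets Dap3 did not pass either (log2 -0.24, adjusted p = 0.0717).

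Among factors that work on the mitochondrial ribosome, counts are read against the 14.3% of all tested genes called lower. Of 15 translation and messenger RNA factors 8 fell (53.3%) and 0 rose, with a median of -0.48. Slirp, which binds and stabilises mitochondrial messenger RNAs, had 9.22, 5.82 and 7.57 CPM in Sms-OE, against 14.5, 16.1 and 19.7 CPM in Control, a fall of 2.22-fold (log2 -1.15 ± 0.19, adjusted p = 0.00228). The span of Slirp overlaps Alkbh1 and Snw1, so its reads may be shared. Gfm1, the elongation factor G of mitochondria (log2 -0.71 ± 0.106, adjusted p = 0.00153), and Tufm, the elongation factor Tu (log2 -0.58 ± 0.123, adjusted p = 0.00733), fell. Of 24 assembly factors 5 fell and 0 rose, with a median of -0.35, and this share of 20.8% is near that of all genes. They included Mtg1, a GTPase of large subunit assembly (log2 -1.09 ± 0.201, adjusted p = 0.00394), Eral1, which binds the small ribosomal RNA (log2 -0.75 ± 0.156, adjusted p = 0.00676), and Mpv17l2 (log2 -0.56 ± 0.135, adjusted p = 0.013), which did not pass with offsets (adjusted p = 0.0694). Without Sms-OE replicate 3, and without Control replicate 1, these numbers were 3 and 4 of the 15 translation factors and 3 of the 24 assembly factors in each case, and without Control replicate 2 or 3 the translation factors were 5.

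Of 17 mitochondrial aminoacyl-tRNA synthetases 2 fell and 0 rose, with a median of -0.16, a share of 11.8% beside 14.3% of all tested genes. Those were Ears2 (log2 -1.12 ± 0.208, adjusted p = 0.00394), which charges the tRNA for glutamate, and Rars2 (log2 -0.54 ± 0.158, adjusted p = 0.0296), which charges that for arginine. Rars2 lost its call without Sms-OE replicate 1 or 3 or Control replicate 1 or 3 (adjusted p = 0.0647, 0.0931, 0.0818 and 0.0909), and with offsets (log2 -0.27, adjusted p = 0.207). Of the 8 genes listed for transcription and upkeep of mitochondrial DNA, 2 fell and 1 rose, where 14.3% of all tested genes fell and 12.5% rose. Polg, the catalytic subunit of the mitochondrial DNA polymerase, rose, with 72.8, 80.0 and 82.0 CPM in Sms-OE, against 52.4, 61.6 and 60.7 CPM in Control (log2 0.43 ± 0.0947, adjusted p = 0.00907), though not with offsets (log2 0.14, adjusted p = 0.366). Tfam, which packages mitochondrial DNA and starts its transcription, fell, with 13.6, 14.3 and 13.1 CPM in Sms-OE, against 20.0, 18.1 and 19.6 CPM in Control (log2 -0.49 ± 0.115, adjusted p = 0.0117). Tfam passed with offsets by the longest transcript (adjusted p = 0.0152) and not with those by the median basic length (log2 -0.17, adjusted p = 0.328). Tefm, the transcription elongation factor, fell at a low level (log2 -0.68 ± 0.215, adjusted p = 0.0408). The Tefm call was lost without any 1 library except Control replicate 3 (adjusted p = 0.0628 to 0.158), and with offsets (log2 -0.34, adjusted p = 0.326).

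Among transcription factors linked to these genes, 8 of the 9 listed were tested, 1 rose and 1 fell. These shares are near those of all tested genes, of which 12.5% rose and 14.3% fell. Yy1, whose letters were searched in the promoters, rose, with 96.6, 103 and 107 CPM in Sms-OE, against 77.0, 77.0 and 73.2 CPM in Control (log2 0.43 ± 0.0805, adjusted p = 0.00418). It did not pass with offsets by the median basic length (log2 0.22, adjusted p = 0.0636). Ppargc1b, a coactivator of mitochondrial gene programmes, fell, with 6.3, 5.58 and 6.57 CPM in Sms-OE, against 13.5, 13.7 and 7.85 CPM in Control (log2 -0.93 ± 0.218, adjusted p = 0.0119), a call lost without Control replicate 2 (adjusted p = 0.0585). Nrf1 (log2 0.27 ± 0.111, adjusted p = 0.0946), Gabpa, a subunit of GABP (log2 0.02 ± 0.0857, adjusted p = 0.907), and Myc (log2 -0.30 ± 0.118, adjusted p = 0.0855) did not pass.

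The RNAs on which the ribosome is built and which it reads are encoded in mitochondrial DNA. Summed over all of them, mitochondrially encoded genes held 3.12%, 2.42% and 2.15% of counts in Sms-OE, against 4.99%, 5.78% and 7.13% in Control. The ribosomal RNA mt-Rnr1 had 462, 737 and 351 CPM in Sms-OE, against 440, 521 and 704 CPM in Control (log2 -0.10 ± 0.281, adjusted p = 0.826). The larger ribosomal RNA mt-Rnr2 had 983, 1400 and 680 CPM in Sms-OE, against 862, 974 and 1230 CPM in Control (log2 0.00 ± 0.248, adjusted p = 0.997). The groups overlapped in both, and these genes were picked with their values known. The libraries were made by selection on oligo(dT), so these values need not follow the amount of ribosomal RNA.

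When the mean log2 CPM of the hepatocyte and hepatoma markers was added to the fit as a covariate, the median of the members was -0.23 and 0 of 78 passed, as did 0 of the 18277 genes in either direction. At an unadjusted p under 0.05, 3 members were lower and 1 higher, and 603 of all tested genes were lower and 660 higher. This covariate stood at 2.709, 2.506 and 1.89 in Sms-OE and 4.24, 4.521 and 4.973 in Control, so it followed the groups. The members' median standard error was 0.463 with it and 0.138 without it. The level of hepatocyte markers and the group cannot be told apart in these 6 libraries.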

How the data were processed

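RNA-seq libraries of F4/80+ cells (3 Sms-OE and 3 Control) were made with oligo(dT) beads and dUTP strand marking, per the labels' protocols. Tools named in the submitters' processing notes are HISAT2 2.2.1 and StringTie 2.1.6, beside cutadapt 1.9, DESeq2 and FastQC 0.11.9. The build, the annotation and the strand setting were not given in the sources used here. The deposited values are the authors' estimated counts for each gene, whole numbers with no normalization. Overlapping genes, and antisense genes, could share reads, and members with processed pseudogenes (Mrps36, Mrpl23 and Mrpl48) are uncertain.

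Symbols, spans, lengths and GC content came from GENCODE M21 (GRCm38) by Ensembl identifier, for 55141 rows; 260 rows had none. The 5 pseudogenes were left out. Sample titles gave the groups and replicate numbers. Within a group, 15.4% to 17.3% of genes with a count had identical values in a pair of libraries, so all 6 were kept as separate samples.

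The test was edgeR 4.0.16 in R 4.3.3 (TMM factors, filterByExpr with the group, glmQLFit with the robust option, glmQLFTest) over 18277 genes, with Benjamini-Hochberg adjustment and a threshold of 0.05. Standard errors come from each gene's F statistic. CPM of single genes used TMM-scaled library sizes, marker sums used library totals without TMM factors, and fitted fold changes used a prior count of 0.125. The steps were tested on simulated counts. Alternatives were DESeq2 1.42.0, limma-voom (limma 3.58.1), other scalings and filters, the replicate number as a block, each library left out, a hepatocyte marker covariate and, added after seeing the data, removal of the 2 haemoglobin-rich libraries and of mitochondrial and haemoglobin rows, and offsets for length and GC content (mgcv 1.9.3, from genes with a mean log2 CPM over 2). The members and lists were chosen with earlier results of these data known. Lists are described by counts and medians.

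Named genes were, for each subunit by symbol, the 6 smallest p past the threshold, the 3 largest p, and the 2 highest and lowest levels per length. The S18 paralogues, Mrps36, the 5 subunits with other symbols and up to 3 genes per other list were added. Mrpl53, Mrpl54, Mrpl52, Mrpl46, Mrpl41, Mrps10, Mrps11, Mrpl36, Mrpl14, Mrpl39, Nrf1, Gabpa, Myc, mt-Rnr1, mt-Rnr2 and the cell type markers named fall outside this rule and were chosen after their values were seen.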

Additional observations from a re-analysis of the deposited data

How the results depend on the processing

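No scaling, filter or other test (DESeq2, limma-voom) that was run, and no leaving out of 1 library, gave a member that was higher, and the median of the members was below 0 under every alternative. With offsets for length and GC content 33 members were lower (20 Mrpl, 13 Mrps; medians -0.38, -0.38 and -0.39 for members, Mrpl and Mrps), and with the median basic transcript length in the offsets 32 (22 and 10; medians -0.39, -0.38 and -0.39). Without the 2 haemoglobin-rich libraries 10 were lower (7 and 3; Mrps median -0.49), with 694 of all genes lower and 690 higher. With offsets and without those libraries 1 was lower (1 and 0; medians -0.33, -0.32 and -0.34), with 380 of all genes lower and 517 higher. At an adjusted p of 0.01, 32 were lower (24 and 8), with 1219 of all genes lower and 1077 higher. With the hepatocyte marker covariate 0 members and 0 of all genes were called, with medians of -0.23, -0.22 and -0.25. Same-numbered libraries did not deviate together (correlations of 0.065, 0.02 and -0.008 over genes), so the numbers were not taken as pairs. With the replicate number as a block 56 members were lower, and with block and offsets 35 (22 and 13, with medians of -0.38, -0.37 and -0.40). The shares of all genes called in these block fits are not given here, so both counts stand without that comparison. Leaving out each library in turn gave 41 to 56 members lower (26 to 33 Mrpl, 15 to 23 Mrps; medians -0.65 to -0.55 for members, -0.65 to -0.53 for Mrpl and -0.65 to -0.55 for Mrps), with 1684 to 2473 of all genes lower and 1366 to 2015 higher. With the covariate the log2 fold change turned above 0 for Mrpl23 (0.036), Mrpl43 (0.19), Mrpl45 (0.22), Mrpl20 (0.045), Mrpl24 (0.17), Mrpl1 (0.45), Mrps6 (0.098), Mrps30 (0.071), Mrps18c (0.34), Mrps21 (0.43), Mrps18b (0.35) and Chchd1 (0.16). It was above 0 with offsets for Mrpl9 (0.17; 0.17 with the block, 0.16 without the haemoglobin-rich libraries and 0.090 with the median basic length), for Mrpl43 (0.18; 0.18, 0.27 and 0.12 in the same order) and for Mrpl45 (0.079; 0.078 with the block and 0.16 without the haemoglobin-rich libraries), and without those libraries for Mrpl24 (0.017). The cause of these reversals was not tested. Members had 157 or more counts in each library. Their counting error cannot be stated, because the values are estimates. The sources used here name StringTie 2.1.6 but not the steps by which the counts were estimated.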
